A study of Drosophila melanogaster with 3 samples.

Results

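The regions described here are HHEX-GFP ChIP-seq regions whose summit fell in the 3' untranslated region (3' UTR) of an annotated transcript. They were chosen by position alone from the list of 30000 regions that was made from the pooled replicates on the dm6 build. That list was deposited as peaks and background together, so a region in it need not be enriched. A summit had to lie in an annotated 3' UTR, in no coding sequence, and more than 500 bp from every annotated transcription start site (TSS). Of 835 summits in a 3' UTR, 776 also lay outside all coding sequence, and the distance from a TSS then removed 185, which left 591 regions. Just inside that distance limit, at 505 and 506 bp, stood regions with a signal of 51.3 and 77.6, and just outside it, at 498 and 490 bp, regions with 54.5 and 200.2. The study has 1 group with 3 biological replicates and no second condition. Every sample was whole Drosophila melanogaster embryos of pooled sex, 0 to 24 h old, from a transgenic line (CG7056-GFP) that stably expresses the protein HHEX, product of CG7056, with GFP fused to its C-terminus. DNA was recovered with an antibody to GFP after sonication to fragments of 200 to 800 bp. An embryo collection of this width mixes many cell types and stages, and the level of the fusion protein relative to the native one is not given in the sources used here. One control alignment, not analysed here, served for calling all replicate lists, so regions enriched in any anti-GFP precipitation cannot be told apart from HHEX sites.

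HHEX is a homeodomain protein of the Hex family, and homeodomains contact short A/T-rich DNA words. Transcription factors are mostly studied at promoters and enhancers, whereas the 3' UTR is best known as the part of the messenger RNA that carries the polyadenylation signal and the sites of RNA-binding proteins and microRNAs. The same DNA can also lie next to, or inside, a neighbouring gene, so a ChIP region there belongs to a place on the chromosome and need not act on the gene whose transcript covers it.

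The bases at the summits are shown for the 8 highest regions on arms X, 2L, 3L and 3R that were also in the thresholded list of the irreproducible discovery rate (IDR) procedure and in all 3 replicate lists, because these regions carry the description that follows. Each is the 30 bases centred on the summit, 5' to 3' on the strand of the host gene, from the RefSeq genome of release 6 (dm6). Capitals mark AATAAA, the canonical polyadenylation signal, or its reverse complement TTTATT.
CG7872 (chrX:15579781-15579810, plus strand): aaaaaaagcacgccacattcgcgtgtttcc
by (chr3R:9528629-9528658, minus strand): ctgattcatatttgtttatatgcccaagtt
stas (chrX:17625055-17625084, minus strand): gtgcgtatgagtAATAAAataacgtatacg
APC7 (chrX:6599467-6599496, plus strand): acaacaatagtcctttatcatccattgtct
CG8206 (chrX:15740379-15740408, plus strand): gctacaagccatcaatttttgtcaatatac
CG4456 (chr3L:9373459-9373488, plus strand): atatttctgAATAAAtgaagattaatatta
scf (chr3L:1300369-1300398, plus strand): gctTTTATTctatttacttctatatattta
dao (chr2L:15254456-15254485, plus strand): gaacaatttaaattaacgaatattcgaatt
In stas and CG4456 the word stood on the host strand, within the printed bases. In scf the reverse complement stood there instead. In the 200 bp around the summit the GC content of the 8 regions ran from 27.0% at CG4456 to 45.5% at CG7872.

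Regions in 3' UTRs were less often of high signal than pooled regions in general. The comparison with all regions includes those within 500 bp of a TSS, which the rule leaves out. Of the 591, 60 were IDR peaks, which is 10.2% (exact Clopper-Pearson 95% interval 7.84 to 12.9%, counting error only), against a background of 18.6% over all 30000 pooled regions and 18.8% over the other 29409. The share was higher than in coding exons, where 21 of 1153 regions were IDR peaks (1.82%, interval 1.13 to 2.77%). It was lower than in introns, with 2161 of 13246 (16.3%, interval 15.7 to 17.0%), while the interval overlapped that of intergenic regions, with 723 of 5903 (12.2%, interval 11.4 to 13.1%). These classes, like the 3' UTR regions, hold summits over 500 bp from a TSS. The pooled signal is the value the authors' peak caller gave a region, and it had a median of 68.8 over the 591 (lowest 48.9, highest 786). The IDR peaks are the 5586 pooled regions of highest signal, so IDR status and pooled signal are 1 measure: the lowest IDR peak had 155.94 and the highest other region 155.90. Among the 60 the signal had a median of 245, and over all IDR peaks 255. The peak caller's −log10 q was at least 2 in 67 of the 591 regions (11.3%). These were all 60 IDR peaks and 7 of the 531 others (1.32%). The same share over all pooled regions is not given here. Most of the 591 thus did not reach this q, which also bears on the host genes and gene lists below.

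The same order was seen in each replicate's own list, where regions were placed by their own summits. The lists of replicates 1, 2 and 3 held 722, 536 and 802 regions in 3' UTRs under the same rule. The 5586 regions of highest signal in each list, as many as there are IDR peaks, are called its highest regions below. They included 60 of these in replicate 1 (8.31%), 58 in replicate 2 (10.8%) and 73 in replicate 3 (9.10%). A −log10 q of at least 2 was reached by 130, 28 and 84 of the 3' UTR regions of replicates 1, 2 and 3. In replicate 2 that is fewer than the 58, so the cut by rank stands for unlike q in the 3 lists. Over all other regions of the same list, those near a TSS included, the share ran from 18.8 to 18.9%, above all 3 values. The mean was 9.41% ± 1.28 (SD, n = 3), above coding exons by 7.84 points ± 1.16 and below introns by 7.20 points ± 0.644. The mean was 3.23 points ± 2.13 below intergenic regions, and replicate 2 held the smallest gap, with 10.8% against 11.6%. Each of the 3 differences had the same sign in all 3 replicates, with an exact sign-flip permutation p = 0.25 (two-sided, n = 3), or 0.25 after Benjamini-Hochberg adjustment over the 3. That is the smallest p that 3 replicates allow, so no test here can pass 0.05.

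**Figure D1:**
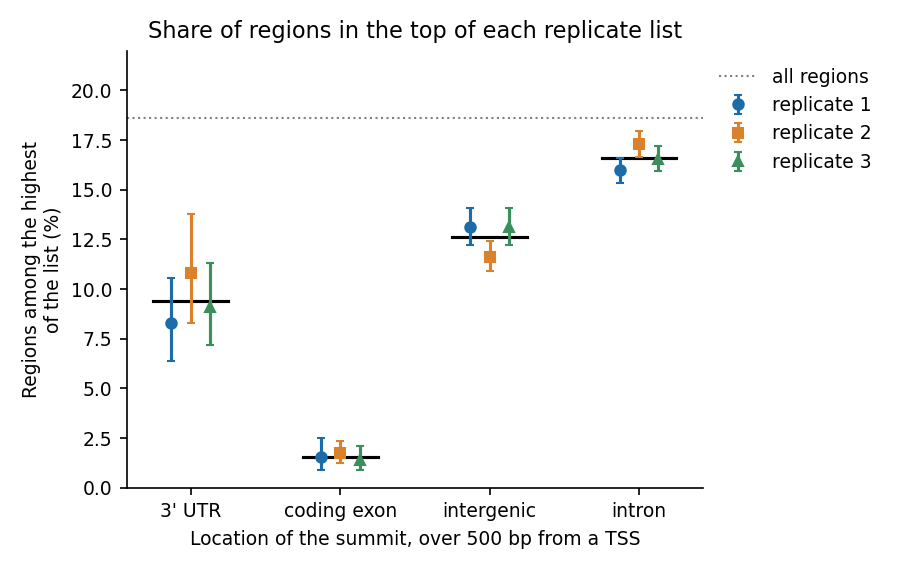
Percent of the regions of each location class that were among the 5586 highest of a replicate list (vertical axis), for summits over 500 bp from a TSS in the 4 classes on the horizontal axis. Points are replicates with exact 95% binomial intervals and black lines are means of 3. The dotted line is the share over all regions, those near a TSS included, 18.6%. The 3' UTR regions (8.31 to 10.8%) sit above coding exons (1.41 to 1.75%) and below introns (16 to 17.3%).

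Rank within a list gave the same picture. The median signal percentile of 3' UTR regions was 34.3, 40.8 and 36.8 in replicates 1, 2 and 3. For all other regions, those near a TSS included, it was 50.2 to 50.5. Over 500 bp from a TSS, its mean over the 3 lists was 28.9 in coding exons, 43.5 in intergenic regions and 48.2 in introns. The mean difference, 3' UTR minus others, was −13.05 percentile points (SD 3.44, n = 3, exact sign-flip permutation p = 0.25, two-sided). As a share of the list, 3' UTR regions made up 1.07, 1.04 and 1.31% of the highest regions and 2.71, 1.96 and 2.99% of the rest.

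Counted against the sequence that could qualify, 3' UTRs were also sparsely covered. Annotated 3' UTR outside coding sequence and over 500 bp from a TSS spans 5.96 Mb, or 4.45% of the 6 arms. It held 99.2 pooled regions and 10.1 IDR peaks per Mb, against 224 and 41.7 per Mb over the arms as a whole, promoters included, and 61.9 and 1.13 per Mb in coding exons under the same distance rule.

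Few of the 591 recurred fully. The pooled summit lay in a region of all 3 replicate lists for 127 (21.5%), against a background of 35.4% over all pooled regions. The share was 11.5% in coding exons, 32.1% in intergenic regions and 35.8% in introns. Of the 591, the summit lay in exactly 2 lists for 242, in 1 for 188 and in none for 34. Replicate 2 contributed least, with 274 of the 591 against 390 in replicate 1 and 389 in replicate 3, and the share found in both other lists was 45.9% when replicate 2 was left out. Only 34 of the 591 (5.75%) lay among the highest regions of all 3 lists, against a background of 11.4%, and all 34 were IDR peaks. All 3 lists held the summit for 48 of the 60 IDR peaks and exactly 2 lists for the other 12. The pooled and IDR lists derive from the same reads as the replicate lists, so these counts describe the lists. Across the IDR peaks present in both lists of a pair, signals correlated with a Spearman's rho of 0.434 between replicates 1 and 2 (49 peaks), 0.575 between 1 and 3 (57 peaks) and 0.640 between 2 and 3 (50 peaks). Over all of the 591 present in both lists it was 0.618 (178 regions), 0.583 (271) and 0.597 (174) for the same pairs. IDR peaks thus had the lower rho for replicates 1 and 2 and the higher one for 2 and 3. Their pooled signal runs from 162 to 786, against 48.9 to 786 for the 591, and an effect of this range on rho was not tested. The points share libraries within a list and have no independent replication.

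The strongest region in a 3' UTR lay in CG7872 (FBgn0030658, X, 15579673 to 15579928). Its signal was 786 in the pooled list and 213, 313 and 249 in the lists of replicates 1, 2 and 3 (258 ± 51.0, SD, n = 3, not rescaled between lists). The summit lay 360 bp after the stop codon and 61 bp before the 3' end, and the next gene, CG9215, ended 1134 bp further on the opposite strand. Close to it in signal was by, which encodes a fly tensin, a protein of integrin adhesion sites (FBgn0000244, 3R, 9528504 to 9528765). It had 781 in the pooled list and 196, 331 and 260 in the replicates (262 ± 67.4), and it ranked between 281 and 786 in the 3 lists. In both regions replicate 2 was the highest and replicate 1 the lowest.

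The region in stas (FBgn0030850, X, 17624957 to 17625208), the fly stasimon gene, which has a role in motor circuits, had a pooled signal of 698 and replicate signals of 264, 198 and 240. Here replicate 2 was the lowest. APC7 encodes a subunit of the anaphase-promoting complex, the ubiquitin ligase that drives exit from mitosis. Its region (FBgn0029879, X, 6599375 to 6599603) had 605 in the pooled list and 176, 213 and 204 in the replicates, a mean of 198 ± 18.9. The nearest TSS of pigs, the next gene on the same strand, was 580 bp away. An IDR peak lay within 500 bp of another TSS of pigs, not of this one. The nearest other IDR peak was 2527 bp from the APC7 summit. The region in CG8206 (FBgn0030679, X, 15740347 to 15740452) had 450 in the pooled list and 148, 124 and 172 in the replicates. It was the narrowest of all 591, at 106 bp, and its summit lay 23 bp before the 3' end. All of these 5 genes but by are on arm X.

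CG4456 lies in the cluster of small heat shock genes on 3L and is also known as Hsp67Bb. Its region (FBgn0001228, 3L, 9373262 to 9373685) had 421 in the pooled list and 177, 81.4 and 154 in the replicates, with a gap between replicate 2 and the others. The summit also lay inside Hsp22, in an annotated 5' UTR, 523 bp from the Hsp22 TSS, so its place in a 3' UTR is 1 of 2 readings of the annotation. Other regions overlap further annotation too. Of the 60 IDR peaks, 12 summits also lay in an annotated intron and 8 inside another protein-coding gene. Of the 591, 114 and 64 did. The 12 include stas, CG33307, ETHR, MESK2, elav, CG1690, Syx1A (inside eIF4EHP), rst and Myc. The region in scf, DNA supercoiling factor (FBgn0025682, 3L, 1300172 to 1300595), had 376 in the pooled list and 172, 80.7 and 127 in the replicates. Its summit lay 5 bp before the 3' end of the transcript, and Rac1, a small GTPase gene, ended 495 bp beyond. Replicate 2 was the lowest in both CG4456 and scf.

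Myd88 encodes the adaptor of the Toll receptor. Its region (FBgn0033402, 2R, 9302812 to 9303235) had 370 in the pooled list and 129, 103 and 142 in the replicates. The end of Drep2 lay 203 bp beyond the summit on the opposite strand. Myd88 also had an IDR peak at its promoter, the nearest IDR peak to the 3' UTR summit, 5800 bp away and with a pooled signal of 649.5. A further IDR region lay in the 3' UTR shared by CG13739 and CG13954 (225 in the pooled list), 1009 bp from the TSS of Myd88.

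Hr4, a nuclear receptor of the ecdysone response, had the most even replicate values among the 10 highest regions found in all 3 lists. Its region (FBgn0264562, X, 2005944 to 2006091) had 349 in the pooled list and 124, 119 and 111 in the replicates, a mean of 118 ± 6.47. It lay 3485 bp into a 3' UTR of 5416 bp. NetB, which encodes a netrin, an axon guidance ligand, also has a long 3' UTR of 5224 bp (FBgn0015774, X, 14689238 to 14689366). The region there had 321 in the pooled list and 120, 92.2 and 101 in the replicates. The region in dao (FBgn0028862, 2L, 15254259 to 15254682) had 364 in the pooled list and 85.1, 124 and 130 in the replicates, so that replicate 1 was the low one here.

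Besides NetB, 9 more of the 20 highest regions found in all 3 lists had pooled signals of 274 to 340. Their hosts were CG14440, CG13510, CG7778, CG33307, Tctp, which encodes the translationally controlled tumour protein, Pbgs, which encodes the haem synthesis enzyme porphobilinogen synthase, CG5984, ETHR, the receptor of ecdysis triggering hormone, and MESK2. The CG13510 summit is shared with the 3' UTRs of CG13511 and CG42565, and the CG33307 summit lies inside CenG1A. Over the 20, replicate signals ran from 49.8 at CG7778 in replicate 2 to 331 at by in replicate 2.

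**Figure D2:**
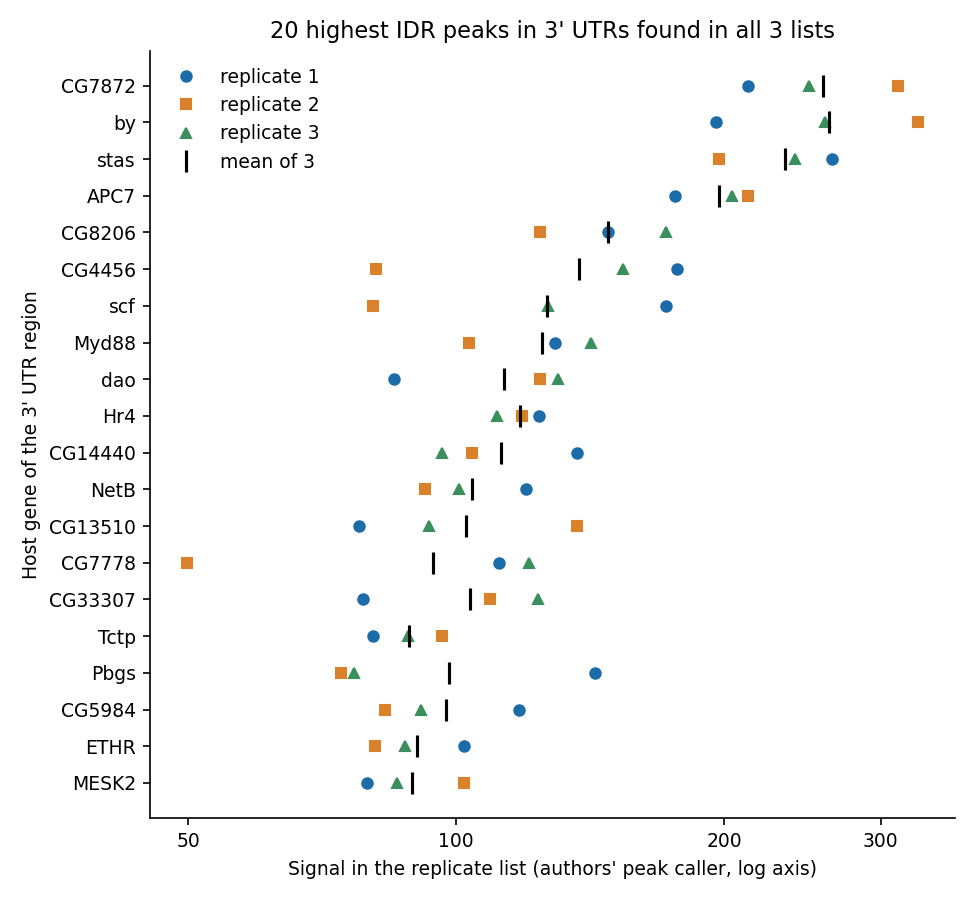
Signal given by the authors' peak caller in each replicate list (horizontal log axis) for the 20 IDR peaks in 3' UTRs of highest pooled signal whose summit lay in all 3 lists (vertical axis, host gene). Symbols are replicates and bars their mean; CG7872 and by lead in replicate 2 (313 and 331), stas leads in replicate 1 (264), and CG4456 and scf are low in replicate 2 (81.4 and 80.7).

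A pair of regions with higher pooled signal than most of these were absent from 1 list. Cals, which encodes calsyntenin, a synaptic cadherin-like protein, hosted the single region on arm 4 (FBgn0039928, 1113236 to 1113456). It had 573 in the pooled list, 184 in replicate 1 and 233 in replicate 3, and the nearest summit of replicate 2 lay 266 bp away. In pros, which encodes a homeodomain transcription factor of neural precursors and glia, the region (FBgn0004595, 3R, 11392894 to 11393105) had 435 in the pooled list, 178 in replicate 2 and 132 in replicate 3. The nearest summit of replicate 1 was 2242 bp away. It lay 897 bp into a 3' UTR of 15530 bp, and its nearest TSS, that of mRpL40, was 14923 bp off. Of the 12 IDR peaks absent from 1 list, 9 were absent from replicate 2, 2 from replicate 1 and 1 from replicate 3. In the case of CG5877, absent from replicate 3, a summit of that replicate lay 216 bp away, whereas for elav, REG, Madm and mtd the nearest replicate 2 summit was 4554 to 7231 bp away.

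At the lower end of the 60, the signals were 170 at rst and at Myc, 168 at CG9837, 163 at CG3168 and 162 at TpnC73F. The Myc region, in the proto-oncogene homologue that controls growth, is shared with CG12535 and had 59.95, 51.0 and 55.6 in the replicates. TpnC73F, a troponin C gene of muscle, had 51.4, 37.3 and 71.0. Of the 531 regions outside the IDR list, the highest were in Octalpha2R, an octopamine receptor gene (154), in CG33307 (152, a further region in the same 3' UTR) and in Bsg, which encodes basigin (151). Bsg was very uneven, with 21.1, 46.9 and 76.4 in replicates 1, 2 and 3, and the values of these 3 regions in the replicates overlapped those of the lowest IDR peaks.

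The 591 regions lay in the 3' UTRs of 476 genes, which is 3.52% of the 13534 protein-coding genes with an annotated 3' UTR, and the 60 IDR peaks in those of 65 genes (0.48%), since 15 of the 591 summits and 4 of the 60 had more than 1 host. One region was found in 385 genes and 2 or more in 91, but no gene held more than 1 IDR peak. The hosts have long 3' UTRs: the longest annotated one had a median of 1176 bp in hosts of any region, 1419 bp in hosts of an IDR peak, and 227 bp over all genes. A longer 3' UTR offers more sequence to the rule, so hosting is read below with the density per Mb as well.

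The most regions in 1 gene were the 9 in corto, a chromatin factor gene that interacts with Polycomb and Trithorax group genes. None of the 9 was an IDR peak, and their signals ran from 54.9 to 137. elav held 6 (51.5 to 279, 1 IDR peak), Cam, the calmodulin gene, 5 (highest 139), Glut4EF 5 (highest 126) and ps 4 (highest 260, 1 IDR peak). Neighbouring regions within these genes in part overlap, so they are not separate sites in every case. HHEX itself had no region in its 3' UTR.

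By function, regulators of RNA gave the most hosts by count, while actin and muscle genes and ecdysone and nuclear receptor genes gave larger shares. Over all genes, 3.52% hosted a region and 0.48% an IDR peak. Of 49 genes for RNA-binding proteins and translational regulators, 10 (20.4%) hosted a region and 3 (6.12%) an IDR peak. These were elav and fne, which encode neuronal RNA-binding proteins of the ELAV family, and ps, the splicing regulator pasilla. The elav region (FBgn0260400, X, 515686 to 516109) had 279 in the pooled list and 93.7 and 103 in replicates 1 and 3, with none in replicate 2. Its summit also lay in an annotated intron and inside the gene arg. The fne region (FBgn0086675, X, 12947621 to 12948044) had 250 in the pooled list and 78.0, 91.3 and 86.3 in the replicates, which is the more even of the pair. The ps region (FBgn0261552, 3R, 9448321 to 9448744) had 260 in the pooled list and 142, 41.5 and 82.2, with replicate 2 the lowest. Rbp9, a further ELAV-family gene, held 2 regions, neither an IDR peak. The median longest 3' UTR of this list was 2424 bp, and the density was 118 regions per Mb of eligible 3' UTR against 99.2 over all genes, so the count per gene exceeded the background by more than the count per Mb did.

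The same background of 3.52% and 0.48% of genes applies to the next lists. Genes of neuronal transmission and axon guidance gave 8 hosts of 51 (15.7%), 3 of them with an IDR peak (5.88% of the list). Besides NetB these were para, the voltage-gated sodium channel (184 in the pooled list, and 55.5, 76.3 and 54.8 in the replicates), and Syx1A, the syntaxin of synaptic vesicle release (177, with 77.2 and 66.9 in replicates 1 and 3 and none in replicate 2). This list too had long 3' UTRs, with a median of 2331 bp, and its density was 86.9 per Mb. Actin and muscle genes gave 9 hosts of 36 (25%), with 1 IDR peak (2.78%), in TpnC73F, at a density of 291 per Mb. Ecdysone and nuclear receptor genes gave 6 of 24 (25%), with 1 IDR peak (4.17%), in Hr4, at 142 per Mb.

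Developmental regulators were hosts in small numbers, at a share above or below that of all genes (3.52%) depending on the list. Densities likewise lay on both sides of the 99.2 per Mb over all genes. Of 75 homeobox genes, 5 hosted a region (Ubx, hth, mirr, vvl and zfh1), none an IDR peak, at 79.3 per Mb. pros, a divergent homeobox gene, was not on that list. Of 45 segmentation and dorsoventral genes 5 were hosts (149 per Mb). The EGF receptor, FGF and Dpp pathways gave 4 hosts of 39 genes (92.0 per Mb). Wnt and Hedgehog genes gave 1 of 35 (sgg, the kinase GSK3, 26.8 per Mb) and Notch pathway genes none of 21. No IDR peak lay in any of them, against a background of 0.48% of genes. Of 39 regulators of endoderm, mesoderm and blood none was a host, against a background of 3.52% of genes, which leaves few hosts in a list of this size. Polycomb and Trithorax groups gave 1 of 30 (Su(z)2, 33.3 per Mb) and chromatin and insulator proteins 4 of 30 (122 per Mb), again with no IDR peak. Cytosolic ribosomal protein genes, whose 3' UTRs are short, gave 5 of 82 and 1 IDR peak, in RpS26 (172 in the pooled list, and 41.3, 34.7 and 76.2 in the replicates), at 270 per Mb. Heat shock and chaperone genes gave 1 of 25, CG4456. These counts are small, and no list was tested.

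Within the 3' UTR, a larger share of IDR peaks than of the other regions lay toward the end of the transcript, with counting intervals that overlap. Of the 60, 30 (50%, interval 36.8 to 63.2%) had their summit in the last of 3 equal parts of the 3' UTR, from the stop codon to the 3' end, against 202 of the other 531 (38%, interval 33.9 to 42.3%). In the last 20% the counts were 21 of 60 (35.0%) and 110 of 531 (20.7%). Position was measured in the longest 3' UTR of the host that holds the summit. A summit with more than 1 host was placed in the host whose 3' end was nearest, which favours the end. This held for 4 of the 60 and 11 of the 531. The 4, in CG13510, Idi, CG13739 and Myc, stood at 75.3 to 99.6%, and the shares without them were not counted. IDR peaks lay a median of 443 bp from the 3' end and the others 549 bp, while their 3' UTRs had nearly the same median length, 1441 and 1454 bp. IDR peaks within 35 bp of a 3' end were found in scf, CG13510, Idi, an isoprenoid synthesis gene, CG8206, CG5877, CG5984, Fnta and CG1690, at 5 to 32 bp.

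**Figure D3:**
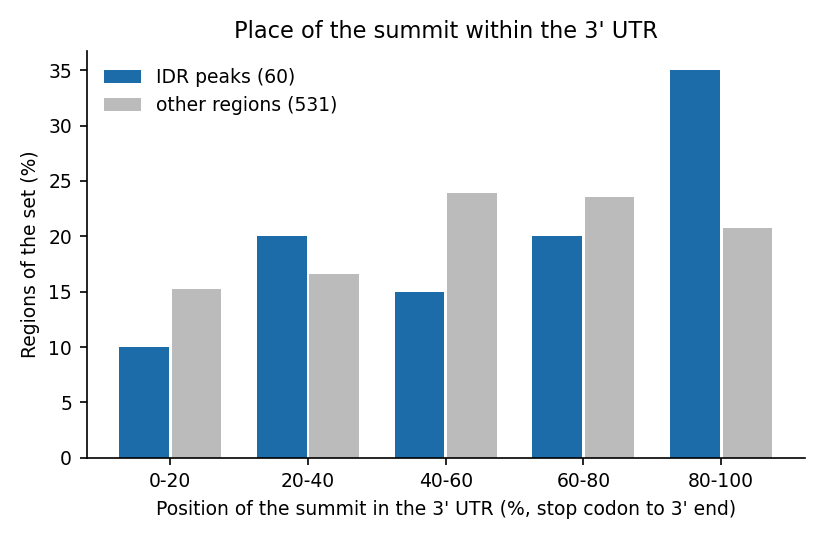
Percent of regions (vertical axis) by the place of the summit in the 3' UTR, in bins of 20% from the stop codon to the 3' end (horizontal axis), for the 60 IDR peaks and the 531 other regions. The last bin holds 35.0% of IDR peaks and 20.7% of the others.

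The polyadenylation word differed more between IDR peaks and other regions on the host strand than on the opposite one, again with overlapping intervals. In the 200 bp at the summit, AATAAA was found on the host strand in 22 of 60 IDR peaks (36.7%, interval 24.6 to 50.1%) and in 120 of the 531 others (22.6%, interval 19.1 to 26.4%). On the opposite strand it was found in 13 (21.7%, interval 12.1 to 34.2%) and 103 (19.4%, interval 16.1 to 23.0%). The difference between strands was not tested. On either strand the shares were 48.3% and 36.5%, against 38.2% of all pooled regions and 47.4% of all IDR peaks in windows of the same length, so the share on both strands together is close to that of IDR peaks anywhere in the genome. IDR peaks in 3' UTRs were also richer in A/T, with a median GC content of 35% against 40%, as were IDR peaks in general (36% against 41% for all pooled regions). Whether the place in the 3' UTR, the GC content and this word go together within regions was not tested.

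The neighbour beyond the 3' end differed as well. Of the 60 IDR peaks, 42 (70.0%, interval 56.8 to 81.2%) faced a next protein-coding gene on the opposite strand, so that both genes end toward the region, against 268 of the 531 others (50.5%, interval 46.1 to 54.8%). The rule keeps a tandem gene's start more than 500 bp away and allows a convergent gene's end at any distance, for IDR peaks and others alike. A convergent neighbour lay a median of 2439 bp from IDR peaks and 1512 bp from the others, and a tandem one 1352 bp and 2528 bp. Convergent neighbours within 1000 bp made up 15 of 60 and 107 of 531, so the difference lay mostly with neighbours farther away. The closest pair was Cals with sv, a Pax-family gene, 38 bp beyond the summit. Others at short range were Myd88 with Drep2, REG, a proteasome activator gene, with mew, an integrin gene (206 bp), and Pbgs with CG32100 (318 bp).

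The next gene's promoter carried an IDR peak, with a summit within 500 bp of a TSS, for 23 of the 60 (38.3%, interval 26.1 to 51.8%) and for 115 of the 531 others (21.7%, interval 18.2 to 25.4%), against a background of 20.3% of protein-coding genes. The host's own promoter carried one for 20 (33.3%) and 200 (37.7%). Examples with a peak at the next promoter were stas with X11L, whose near end was 18191 bp away, Hr4 with PIG-K, Tctp with ZnT86D and fne with hec. Another IDR peak within 2000 bp of the summit was about as frequent in both sets, 11 of 60 (18.3%) and 116 of 531 (21.8%). The nearest TSS was that of the host for 30 of the 60 (50%) and 192 of the 531 others (36.2%). It was that of the next gene downstream for 22 (36.7%) and 247 (46.5%), so the start of the next gene was the nearest for a smaller share of IDR peaks. A convergent gene starts at its far end, so this share is not separate from the orientation given above. Among the 22, besides APC7, were dao with PolD3 at 1833 bp, Hr4 with PIG-K at 3338 bp, CG14440 with CG14442 at 1678 bp, and pros with mRpL40.

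Arm X held 23 of the 60 IDR peaks (38.3%, interval 26.1 to 51.8%) and 128 of the 531 others (24.1%, interval 20.5 to 28.0%), against 17.7% of all IDR peaks and 16.5% of all pooled regions. X has 23.4% of the eligible 3' UTR sequence, so the share of the other regions was near that of the sequence. Per Mb of that sequence, X held 16.5 IDR peaks, and the arms 2L, 2R, 3L and 3R held 7.19 to 9.18. For all 591 regions, X with 108 per Mb lay within the range of those arms, 81.2 to 112.

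Since the pooled list holds the reads of all replicates, the same features were counted in each replicate's own 3' UTR regions, the highest against the rest. These 8 features were picked after the pooled values had been seen, so the counts show how far the lists differ and are no separate evidence. A convergent next gene was found for 70.0, 62.1 and 69.9% of the highest regions in replicates 1, 2 and 3 and for 55.4, 52.1 and 53.1% of the rest, a difference of 13.8 points ± 3.47 (SD, n = 3). An IDR peak at the next promoter gave 45.0, 31.0 and 32.9% against 23.3, 16.9 and 22.6%, a difference of 15.4 ± 5.85 that was widest in replicate 1. AATAAA on the host strand gave 36.7, 31.0 and 37.0% against 26.3, 22.2 and 22.6%, a difference of 11.2 ± 2.84. In each of these the 3 lists had the same order, with the highest regions above the rest.

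Arm X held 33.3, 32.8 and 31.5% of the highest 3' UTR regions and 24.2, 19.2 and 24.3% of the rest, a difference of 9.97 points ± 3.22. The last of the 3 parts of the 3' UTR held 48.3, 41.4 and 43.8% against 35.6, 31.6 and 36.8%, a difference of 9.85 ± 2.81. Mean GC content was 36.4, 38.3 and 37.5% in the highest regions and 38.9, 40.9 and 38.8% in the rest, a difference of −2.13 points ± 0.782. Each of these 6 differences had 1 sign in all 3 replicates, with an exact sign-flip permutation p = 0.25 (two-sided, n = 3) and 0.333 after adjustment over the 8. AATAAA on the opposite strand differed by 0.428 points ± 1.95 (exact permutation p = 0.75, adjusted 0.857) and an IDR peak at the host's promoter by −0.370 points ± 3.84 (exact permutation p = 1), each with both signs among the replicates.

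**Figure D4:**
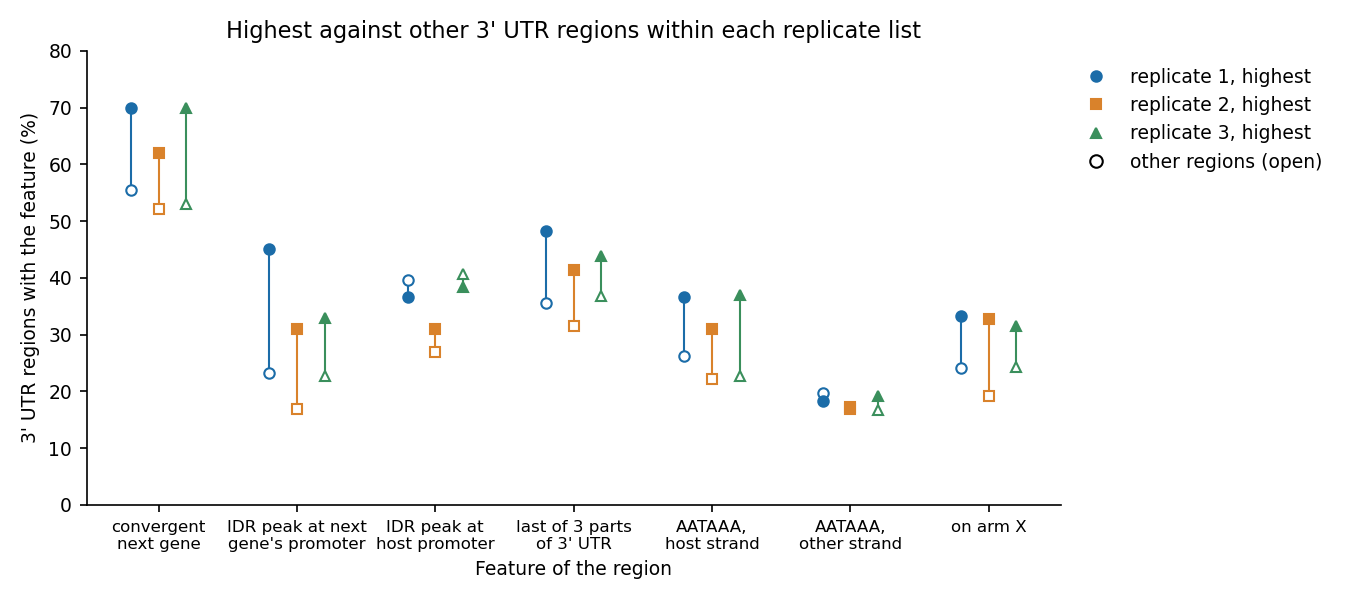
Percent of 3' UTR regions with each feature (vertical axis) in the replicate lists, for the regions among the 5586 highest of the list (filled) and the other 3' UTR regions (open); lines join the pair of values of 1 replicate. The filled symbol is above the open one in all 3 replicates for a convergent next gene, a peak at the next promoter, the last of 3 equal parts of the 3' UTR, AATAAA on the host strand and arm X, and not in all 3 for a peak at the host promoter or AATAAA on the other strand.

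Words known from homeodomain and other factors were not more frequent at the IDR peaks in 3' UTRs than in the pooled list beyond the counting intervals. Each was searched on both strands of the 200 bp at the summit. TAATTA, a core homeodomain word, was found in 7 of 60 (11.7%, interval 4.82 to 22.6%), against 12.1% of the other 3' UTR regions, 12.6% of all pooled regions and 16.6% of all IDR peaks. CATTAA was found in 11 (18.3%, interval 9.52 to 30.4%), against 11.7, 14.6 and 16.3%. CAATTA and TTATTG were found in 8 each (13.3%), against 17.4% and 18.3% of all pooled regions. With 60 regions the intervals span the values of all 3 comparison sets, so a difference of a few points was not detectable.

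GATAAG, the word of zinc finger factors such as Serpent, was found in 8 of 60, against 10.8% of all pooled regions. GAGAGAG, the word of Trithorax-like, was found in 3, against 3.97%. TATCGATA, which the boundary protein BEAF-32 and the factor DREF bind in overlapping forms, and GGTCACAC were found in 0 of 60, which allows a share of up to 5.96% (the exact bound), while all pooled regions had 1.25% and 1.10%. CACACACA was found in 6 (10%) and in 10.7% of the other 3' UTR regions, against 6.40% of all pooled regions. TGTANATA, the RNA word of Pumilio proteins, was found on either strand in 10 (16.7%) and in 18.5% of the others, against 9.05% of all pooled regions. On the host strand alone it was found in 5 (8.33%) and 9.42%, and on the opposite strand in 7 (11.7%) and 11.7%, so neither set held it more on the strand that is transcribed into the message. A word match describes the DNA letters and is not a binding site.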

How the data were processed

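The authors deposited lists of regions, whose columns include the signal of their peak caller per region and its −log10 q, which has a ceiling in each list. Both were made by the authors, and signals served only comparisons inside a list. For the aligner, the caller and the threshold of the IDR step, the sources used here give no name or value, and read depth is unknown. Regions lay on dm6 and were annotated with Ensembl release 115 (BDGP6.54, same coordinates), leaving out transposable elements, with 23581 distinct TSSs. Lists on dm3 were not used. A pooled region counted as found in a replicate when its summit lay inside a region of that list.

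The members and lists were chosen with earlier results of these data known. Named genes are the 20 IDR peaks of highest signal found in all 3 lists, up to 3 hosts by signal of each gene list with at least 2 IDR hosts, the 3 highest regions outside the IDR list, the 5 lowest IDR peaks, the 5 genes with most regions, and the 5 highest IDR peaks whose nearest TSS is the next gene's. Others were chosen after their values were seen. Gene lists were corrected for symbols after values had been seen, with older symbols matched through RefSeq synonyms, and 5 symbols stayed unmatched. Replicates were compared by exact sign-flip permutation, and counting intervals are exact binomial at 95%. The counting was tested on simulated data. Python 3.11.15, numpy 2.4.6, pandas 2.3.3 and scipy 1.17.1 were used.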

Additional observations from a re-analysis of the deposited data

How the results depend on the processing

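The number of regions was 474 to 656 under the other distances from a TSS, with transposable element TSSs counted, with only a 3' UTR at the summit, or with most of the region in a 3' UTR, against 591. The share of IDR peaks moved to 13% with 1 region per host gene (60 of 460). That setting kept all 60 IDR peaks and dropped only other regions, so the rise is by construction. The share moved to 4.40% with the upper part of the IDR list, which holds fewer peaks by construction. The share found in all 3 lists was 15.9% when a replicate summit had to lie within 100 bp, 5.75% among the highest regions, and 29.4 to 45.9% with 1 replicate left out, which asks for fewer lists. The shares and percentiles within replicate lists kept their sign under each alternative run. Among alternatives chosen after seeing the data, the convergent difference between IDR peaks and others ran from 18.2 to 24.6 points, that of arm X from 13.7 to 14.9, and that of AATAAA on the opposite strand from −5.48 to 3.37. Word shares moved with the window: AATAAA on the host strand was found in 23.3% of IDR peaks in 100 bp and 55.0% in 400 bp. No paired analysis was possible because there is 1 group, so no groups share replicate numbers; the differences within lists are already taken per replicate. Replicates are few, lists hold no read counts, and 60 IDR peaks limit each share.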
